A study of Mus musculus with 12 samples.

Results

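The mitochondrial ribosomal protein genes were taken as all gene symbols of the deposited count table that consist of Mrpl or Mrps, a number and at most one letter from a to c. This name rule gave 77 of 24328 symbols, and all 77 passed the filter on low counts, so that no member was left out. Counts came from 12 RNA-seq libraries, 4 mice a group, each made from microglia of a wild-type BALB/c mouse. Microglia are macrophages that live in the brain, and they were isolated by FACS. The allogeneic group was lethally irradiated and received allogeneic bone marrow (5000000 cells) with 300000 T cells, and was killed on day 14. The labels call this day the peak of GvHD, or graft-versus-host disease, in which donor T cells damage host organs. The syngeneic group went through the same irradiation and received the same numbers of syngeneic cells, and was killed on the same day. The control group was untransplanted, and its labels name no irradiation. The donor strain is not given in the sources used here. Each library is 1 labelled mouse, and a sorted population may hold donor-derived cells beside those of the host.

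The mitochondrial ribosome, or mitoribosome, translates the few messages encoded by mitochondrial DNA, which specify subunits of the respiratory chain and of ATP synthase. Its small subunit binds and decodes the message and its large subunit joins the amino acids. All of its proteins are encoded in the nucleus, made in the cytosol and imported into mitochondria, where they join ribosomal RNAs made from mitochondrial DNA. Many descend from bacterial ribosomal proteins and the others arose with mitochondria. By textbook assignment, 50 of the 77 genes encode large subunit proteins and 26 small subunit proteins. A counterpart in bacteria was assigned to 46, and 30 were taken as specific to mitochondria. Mrps18a and Mrps18b were counted among the 30, although they are related to a bacterial protein. Mrps30 and Mrps18a carry small subunit names but their proteins sit in the large subunit of mammals, and Mrps36 is now known as part of the alpha-ketoglutarate dehydrogenase complex, so that the name rule holds 1 gene outside the mitoribosome.

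Library totals were 35559202 to 42641198 counts in allogeneic, 36422729 to 46126118 in syngeneic and 32652208 to 45439607 in control libraries. Levels below are CPM, that is, counts scaled to a common library size, with library sizes corrected by TMM factors. A ± sign gives the SD over 4 libraries after a level and the SE of the fit after a log2 fold change. A gene was called where edgeR's quasi-likelihood test, fitted on all 12695 tested genes, gave a Benjamini-Hochberg adjusted p under 0.05, and rose and fell refer to called genes. Microglia markers, a list of 7 genes, summed to 26829 to 28234.5 CPM in allogeneic, 36152 to 38306 in syngeneic and 40103 to 45759.8 in control libraries. The 6 markers of monocytes and engrafted macrophages summed to 103 to 130.1 CPM in allogeneic, 18.2 to 37.1 in syngeneic and 8.64 to 15.2 in control libraries. For the 6 choroid plexus markers the sums were 339 to 604 CPM in allogeneic, 1092 to 1929 CPM in syngeneic and 12.9 to 96.7 CPM in control libraries. The 5 astrocyte markers summed to 13.4 to 27.7 CPM in allogeneic, 16.4 to 28.5 in syngeneic and 0.842 to 5.94 in control libraries, and the 5 neuron markers to 3.62 to 8.81 CPM in allogeneic, 5.97 to 11.6 in syngeneic and 1.57 to 2.15 in control libraries. The 3 NK cell markers summed to 0.853 to 1.77 CPM in allogeneic libraries and to at most 0.0446 in the others, with Ncr1 and Gzma at 0 in all 12. No marker on the 5 lists before the NK cell list was at 0 in all libraries. In all 12 libraries, T cell markers summed to at most 0.788 CPM and B cell markers to at most 0.901. Neutrophil markers summed to 0.0531 to 26.1 CPM and oligodendrocyte markers to 44.8 to 79.2. Endothelial markers summed to 11.9 to 25.3 CPM and erythroid markers to 0.0215 to 14.7, with Hba-a1 and Hbb-b1 at 0 in all 12. The part of these cells in the results below was not tested. In sorted bulk RNA, fewer cells of a type and less RNA per cell cannot be told apart.

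Levels of different genes were compared as CPM per kilobase of transcript, averaged over all 12 libraries, and they spanned 1.45 to 176 with a median of 32.7. Highest were Mrpl52 at 176, Mrps21 at 170.1, Mrpl42 at 143, Mrpl20 at 143 and Mrpl17 at 140.3 CPM per kilobase. Mrps21, Mrpl20 and Mrpl17 have bacterial counterparts, while Mrpl52 and Mrpl42 are specific to mitochondria. Lowest were Mrpl3 at 4.41, Mrps25 at 3.94, Mrps24 at 3.83, Mrps26 at 3.66 and Mrps30 at 1.45 CPM per kilobase. Neighbours in this order did not always differ beyond their spread: in control libraries Mrpl52 had 115 ± 5.04 and Mrps21 104 ± 7.62 CPM per kilobase. Likewise Mrpl42 had 78.2 ± 9.17 against 91.8 ± 8.41 for Mrpl20. The order differed in control libraries alone, where Mrpl4, at 101 ± 7.88, and Mrpl36, at 98.2 ± 10.6, had higher means than Mrpl20 and Mrpl42. Without division by length, 2 of these 5 highest genes stayed among the 5 highest.

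Summed over all 77 genes, the level was 4065, 4029, 4265 and 3888 CPM in the 4 allogeneic libraries, 3602, 3507, 3545 and 3316 CPM in the 4 syngeneic libraries and 2775, 2587, 2598 and 2532 CPM in the 4 control libraries. The 3 groups did not overlap, with allogeneic libraries highest and control libraries lowest. Large subunit genes summed to 2920.3 ± 92.9 CPM in allogeneic, 2475 ± 89.7 in syngeneic and 1859.9 ± 77.4 in control libraries. Small subunit genes summed to 1117 ± 65.8 CPM in allogeneic, 1000.04 ± 35.2 in syngeneic and 752 ± 28.2 in control libraries. This order depended on the scaling: as a share of library totals alone, the 77 genes took 3555 ± 76.4 CPM in allogeneic and 3519 ± 95.4 in syngeneic libraries, a difference within the spread. On that scale control libraries were lower, at 2968.5 ± 55.3 CPM. TMM factors adjust for the composition of a library, that is, for a few very abundant genes that take up a larger or smaller part of its reads.

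**Figure D1:**
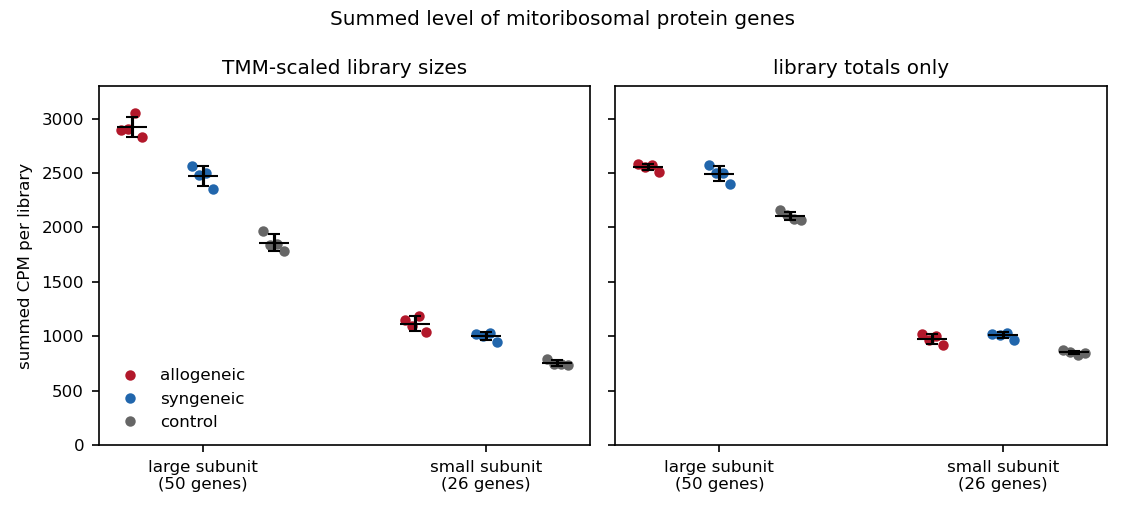
Summed CPM of the large subunit genes (50) and the small subunit genes (26) in each library, with TMM-scaled library sizes on the left and library totals on the right. Points are libraries, horizontal marks are group means and bars are SD (n = 4); allogeneic and syngeneic libraries separate on the left and overlap on the right, and control libraries are lowest in both panels.

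The means of 52 of the 77 genes ran in that same order, highest in allogeneic and lowest in control libraries, on the TMM scale. The opposite order held for 9 genes. Across the 12 libraries, the log2 level of a gene correlated with the summed level of the other members at a median Pearson r of 0.83, from -0.79 to 0.997. This describes libraries that share the 3 groups and is no test. Most like the sum were Mrps21 (0.997), Mrpl33 (0.99), Mrpl23 (0.99) and Mrps28 (0.98). Running against it were Mrps5 (-0.79), Mrpl38 (-0.78), Mrpl4 (-0.76) and Mrps12 (-0.76), so the family did not move as 1 unit.

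**Figure D2:**
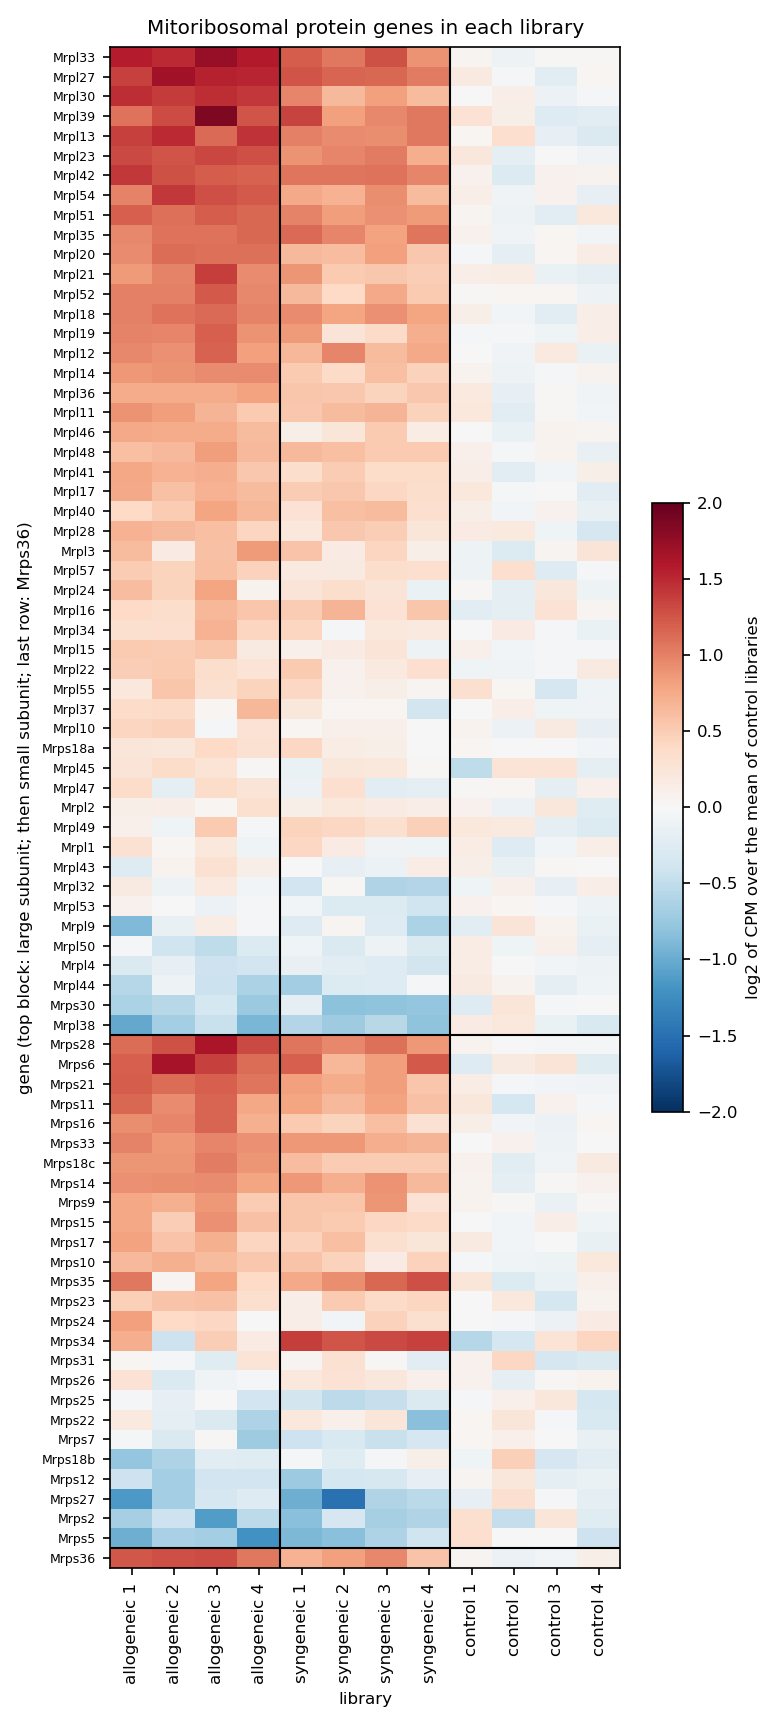
Level of each of the 77 genes (rows) in each of the 12 libraries (columns), as log2 of its CPM over its mean in control libraries; red is higher and blue lower, with colours limited to values from -2 to 2. Large subunit genes come first, then small subunit genes, then Mrps36; rows run from the highest to the lowest log2 fold change of allogeneic against control, and Mrps34 is red in the 4 syngeneic libraries and near the control level in the allogeneic ones.

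Promoter sequences were looked up as a description, and 4 are shown. Allogeneic libraries showed the largest rise against syngeneic libraries for Mrpl30 and against control libraries for Mrpl33, and the largest fall against control libraries was that of Mrps5 in the allogeneic and of Mrps27 in the syngeneic group. Each runs 5′ to 3′ on the gene's strand from 250 bases before to 50 bases after the RefSeq start on GRCm38.p6, and capitals mark the letters searched for NRF1, ETS factors and YY1. These are known regulators of nuclear genes for mitochondria. 
Mrpl30: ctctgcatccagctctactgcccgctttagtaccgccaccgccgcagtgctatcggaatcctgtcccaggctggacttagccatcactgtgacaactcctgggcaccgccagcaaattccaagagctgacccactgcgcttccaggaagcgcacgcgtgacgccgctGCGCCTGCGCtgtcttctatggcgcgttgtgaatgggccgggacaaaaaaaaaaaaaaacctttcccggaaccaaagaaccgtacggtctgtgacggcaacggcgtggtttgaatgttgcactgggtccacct
Mrpl33: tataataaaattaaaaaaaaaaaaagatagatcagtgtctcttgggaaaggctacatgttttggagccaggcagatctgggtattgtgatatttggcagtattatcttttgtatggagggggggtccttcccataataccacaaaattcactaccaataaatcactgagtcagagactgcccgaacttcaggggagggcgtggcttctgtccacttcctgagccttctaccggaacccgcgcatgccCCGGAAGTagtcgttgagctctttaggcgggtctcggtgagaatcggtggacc
Mrps27: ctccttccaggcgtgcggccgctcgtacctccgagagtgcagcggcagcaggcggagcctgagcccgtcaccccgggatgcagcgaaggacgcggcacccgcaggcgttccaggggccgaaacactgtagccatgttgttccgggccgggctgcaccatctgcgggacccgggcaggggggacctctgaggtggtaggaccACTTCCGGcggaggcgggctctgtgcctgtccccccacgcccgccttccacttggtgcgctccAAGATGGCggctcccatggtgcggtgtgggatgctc
Mrps5: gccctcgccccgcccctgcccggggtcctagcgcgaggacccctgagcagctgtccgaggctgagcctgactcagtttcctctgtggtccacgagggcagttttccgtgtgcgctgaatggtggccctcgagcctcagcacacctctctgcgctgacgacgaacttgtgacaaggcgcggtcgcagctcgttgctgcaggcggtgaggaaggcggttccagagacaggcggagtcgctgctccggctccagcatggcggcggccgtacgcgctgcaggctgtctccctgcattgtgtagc
 The Mrpl30 promoter lies at chr1:37890227-37890526 and holds the NRF1 letters from 83 bases before the start. The Mrpl33 promoter lies at chr5:31613701-31614000 and holds the ETS letters across the start. The Mrps27 promoter, at chr13:99344536-99344835, holds ETS letters from 49 bases before the start and YY1 letters from base 15 after it. None of the 3 was in the Mrps5 window at chr2:127587176-127587475. All 4 lie on the plus strand. Of the 77 members, 68 had such a promoter, Mrps34 not among them, and the first listed start was used. On either strand, the NRF1 letters (GCGCA and GCGC with 1 base of any kind between them) were in 19.1% of these and in 10.8% of the 9695 tested genes with a promoter. The ETS letters CCGGAAGT were in 16.2% and 8.56% of the same sets, and the YY1 letters AAGATGGC in 17.6% and 4.82%. The NF-Y letters CCAAT were in 39.7% of members and 38.9% of tested genes, and the SP1 letters GGGCGG in 50% and 63.8%. The TATA box letters TATAAA were in 5.88% and 7.14%, and the E-box letters CACGTG in 7.35% and 10.4%. These are counts of letters and not of bound sites, and no test was made of them.

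Allogeneic recipients were set against syngeneic recipients to ask what GvHD adds to irradiation and transplantation. In allogeneic microglia 13 of the 77 mitoribosomal protein genes rose, 1 fell and 63 were not called. That is 16.9% called higher and 1.3% called lower, beside 10.1% and 6.38% of all tested genes. Log2 fold changes ran from -1.03 to 0.66 with a median of 0.21 (-0.015 over all tested genes). In all, 61 of 77 were above 0, beside 6118 of all 12695 tested genes. All 4 allogeneic libraries were above all 4 syngeneic libraries for 23 members and below them for 1, beside 12.6% and 8.1% of all tested genes.

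Mrpl30, the counterpart of a bacterial large subunit protein, had 100.3, 95.6, 101 and 96 CPM in allogeneic libraries, against 71.6, 56.9, 64.2 and 56.3 CPM in syngeneic libraries. The groups were far apart, and the rise was the largest of the family (edgeR log2 fold change 0.66 ± 0.10 SE, adjusted p = 0.000129). Mrpl33, another large subunit protein with a bacterial counterpart, had 92.6, 87.7, 104 and 93.8 CPM in allogeneic libraries, against 72, 64.8, 75.7 and 58.2 CPM in syngeneic libraries. Every allogeneic library was above every syngeneic one (edgeR log2 fold change 0.48 ± 0.11 SE, adjusted p = 0.00286). Mrps34, a mitochondrion-specific small subunit protein, was the single gene that fell, with 17.2, 7.8, 14.6 and 11.6 CPM in allogeneic libraries, against 27.2, 24.9, 25.8 and 26.8 CPM in syngeneic libraries. Its syngeneic libraries were tightly grouped and its allogeneic ones more spread (edgeR log2 fold change -1.03 ± 0.25 SE, adjusted p = 0.0069). The other large subunit genes that rose were Mrpl54 (0.48 ± 0.13), Mrpl52 (0.47 ± 0.10) and Mrpl46 (0.45 ± 0.12), which are specific to mitochondria, given as log2 fold change ± SE. Those with bacterial counterparts were Mrpl19 (0.45 ± 0.14), Mrpl14 (0.42 ± 0.10), Mrpl20 (0.41 ± 0.10), Mrpl23 (0.39 ± 0.12) and Mrpl27 (0.37 ± 0.12). Small subunit genes that rose were Mrps16 (0.48 ± 0.13), Mrps21 (0.41 ± 0.098) and Mrps18c (0.39 ± 0.10), all with bacterial counterparts. By class, 10 of 50 large and 3 of 26 small subunit genes rose. So did 10 of 46 genes with a bacterial counterpart and 3 of 30 mitochondrion-specific ones. These shares were not tested against each other.

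The calls were sensitive to single libraries, since 7 of the 13 stayed called whichever library was left out, and so did the fall of Mrps34. Lost at these edgeR adjusted p were Mrps16 (0.0553 to 0.058 without allogeneic 3 or syngeneic 4), Mrpl54 (0.0634 to 0.0643 without allogeneic 2 or syngeneic 4), Mrpl19 (0.0585 to 0.118 without allogeneic 1, 2, 3 or syngeneic 2, 3), Mrpl23 (0.0539 to 0.127 without allogeneic 1, 2, 3, 4 or syngeneic 1, 2, 4), Mrps18c (0.0511 without allogeneic 3) and Mrpl27 (0.051 to 0.124 without allogeneic 2, 3, 4 or syngeneic 1, 2, 3, 4). They also depended on scaling and on length. With library totals in place of TMM, 1 gene was called higher and 3 lower, beside 6.65% and 16.6% of all tested genes. With a correction for transcript length, added after seeing the data, 7 of the 77 (9.09%) were called higher, which is no larger than the 9.92% of all tested genes. Only 4 of these were among the 13.

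Allogeneic recipients were also set against untransplanted controls, which differ from them in irradiation, transplantation and GvHD together. In allogeneic microglia 50 of the 77 genes rose and 7 fell. That is 64.9% and 9.09%, beside 28.2% and 29.1% of all tested genes. The median log2 fold change was 0.59, with a range of -0.86 to 1.60 (-0.069 over all tested genes). All 4 allogeneic libraries were above all 4 control libraries for 45 genes and below them for 6, beside 26.2% and 27.7% of all tested genes. Of the large subunit genes 35 of 50 rose and 3 fell, and of the small subunit genes 14 of 26 rose and 4 fell.

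Mrpl33 had the largest rise, to 94.6 ± 7.01 CPM in allogeneic libraries, against 32.2, 29, 31.7 and 31.8 CPM in the 4 control libraries (edgeR log2 fold change 1.60 ± 0.11 SE, adjusted p = 4.07e-10). Mrpl27, whose bacterial counterpart lies close to the catalytic centre of the ribosome, had 54.6, 67.8, 61.4 and 61.1 CPM in allogeneic libraries, against 24.1, 20.8, 18 and 21.7 CPM in control libraries. These groups were far apart (edgeR log2 fold change 1.53 ± 0.12 SE, adjusted p = 4.91e-09). A further large subunit gene with a bacterial counterpart, Mrpl30, had 36, 39.8, 33.5 and 35.5 CPM in control libraries, below all allogeneic values (edgeR log2 fold change 1.44 ± 0.11 SE, adjusted p = 1.25e-09). Mrps28, a small subunit gene, had 43.7, 48.8, 62.7 and 50.1 CPM in allogeneic libraries, against 21.1, 20.1, 19.8 and 19.6 CPM in control libraries. Its groups did not overlap (edgeR log2 fold change 1.35 ± 0.13 SE, adjusted p = 7.02e-08). Rises of similar size were those of Mrpl39 (1.41 ± 0.19), which is mitochondrion-specific, and of Mrpl13 (1.37 ± 0.15), Mrpl23 (1.30 ± 0.12) and the small subunit gene Mrps6 (1.34 ± 0.28), which have bacterial counterparts. Mrps6 stood at only 9.14 ± 1.57 CPM in allogeneic and 3.6 ± 0.672 CPM in control libraries. The genes with the highest level per kilobase over all 12 libraries rose as well. Their log2 fold changes were 1.27 ± 0.099 SE for Mrpl42, 1.15 ± 0.099 for Mrps21, 1.07 ± 0.10 for Mrpl20, 1.06 ± 0.10 for Mrpl52 and 0.67 ± 0.095 for Mrpl17. That level includes the allogeneic libraries, so the choice itself favours genes that rose. In control libraries Mrpl4, which fell, had 101 ± 7.88 CPM per kilobase, beside 91.8 ± 8.41 for Mrpl20 and 78.2 ± 9.17 for Mrpl42.

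Among the 7 genes that fell, Mrps5, a small subunit protein with a bacterial counterpart, had 12, 14.9, 14.6 and 10.2 CPM in allogeneic libraries, against 29.6, 23.4, 23.3 and 17.6 CPM in control libraries. This was the largest fall of the family (edgeR log2 fold change -0.86 ± 0.20 SE, adjusted p = 0.00141). Mrpl38, a mitochondrion-specific large subunit protein, had 19, 24, 28.3 and 20.5 CPM in allogeneic libraries, against 43.2, 44.3, 35.1 and 31.2 CPM in control libraries. For both genes the highest allogeneic library was below the lowest control library, and Mrpl38 fell by a similar factor (edgeR log2 fold change -0.75 ± 0.16 SE, adjusted p = 0.000644). The others were Mrps2 (-0.66 ± 0.19), Mrps27 (-0.57 ± 0.23), Mrps12 (-0.46 ± 0.17), whose bacterial counterpart is part of the decoding centre, Mrpl44 (-0.42 ± 0.17), a protein with a ribonuclease-like fold, and Mrpl4 (-0.31 ± 0.098). The calls of Mrps27 (edgeR adjusted p 0.0634 to 0.135 without allogeneic 1, 2 or control 2, 3), Mrps12 (0.0661 to 0.0954 without allogeneic 2 or control 1, 2) and Mrpl44 (0.0715 to 0.11 without allogeneic 1, 3, 4 or control 1, 2) were lost on leaving out these libraries. Without control 2 the count that fell was 4, where 26.9% of all tested genes were called lower (29.1% with all libraries). Under library totals 15 members were called lower and 35 (45.5%) higher, beside 41.4% and 19.3% of all tested genes. Mrpl4 had the opposite sign with a correction for GC content alone (0.39, edgeR adjusted p = 0.00333), as did Mrps12 (0.22).

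**Figure D3:**
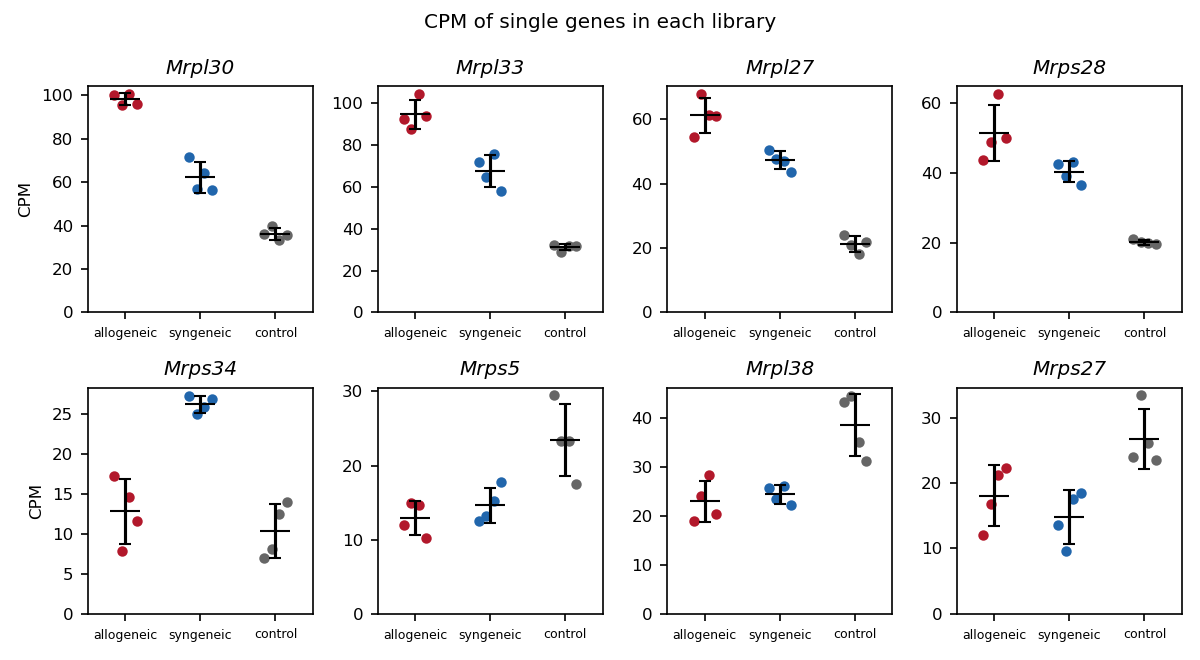
CPM of 8 members in each library, in allogeneic, syngeneic and control groups from left to right; points are libraries, horizontal marks are means and bars are SD (n = 4). Mrpl30, Mrpl33, Mrpl27 and Mrps28 are highest in allogeneic and lowest in control libraries, Mrps34 is high in syngeneic libraries, and Mrps5, Mrpl38 and Mrps27 are highest in control libraries.

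Syngeneic recipients were set against the same controls to show irradiation and transplantation without GvHD. The 2 comparisons with control share those 4 libraries, so their counts are not independent of each other. In syngeneic microglia 42 of the 77 genes rose and 7 fell. That is 54.5% and 9.09%, beside 26.4% and 25.6% of all tested genes. The median log2 fold change was 0.41, with a range of -0.85 to 1.33 (-0.028 over all tested genes). All 4 syngeneic libraries were above all 4 control libraries for 41 genes and below them for 4, beside 24.6% and 25.5% of all tested genes. Large subunit genes held 26 that rose of 50, and small subunit genes 15 of 26.

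Mrps34 had the largest rise, with 27.2, 24.9, 25.8 and 26.8 CPM in syngeneic libraries, against 6.99, 8.12, 12.5 and 13.9 CPM in control libraries. No values overlapped (edgeR log2 fold change 1.33 ± 0.25 SE, adjusted p = 0.000224). Its allogeneic libraries lay across the control range, and that difference was not called (edgeR log2 fold change 0.30 ± 0.25 SE, adjusted p = 0.322). Mrps34 was the single member called in opposite directions, up in syngeneic against control and down in allogeneic against syngeneic, and both calls rest on the same 4 syngeneic libraries. Mrps35, also a mitochondrion-specific small subunit protein, had 14.8, 7.4, 12.4 and 9.42 CPM in allogeneic, 12.1, 13.7, 15.9 and 17.5 CPM in syngeneic and 8.45, 5.89, 6.525 and 7.68 CPM in control libraries. It rose in syngeneic against control (edgeR log2 fold change 1.05 ± 0.25 SE, adjusted p = 0.00163), and allogeneic and syngeneic libraries overlapped. It also rose in allogeneic against control (edgeR log2 fold change 0.62 ± 0.25 SE, adjusted p = 0.03825), a call lost at 0.0547 to 0.1485 without allogeneic 1, 3 or control 2, 3, 4. Large rises were also seen for Mrpl27 (1.16 ± 0.12), Mrpl33 (1.12 ± 0.11), Mrpl39 (1.06 ± 0.19), Mrpl42 (1.05 ± 0.098), Mrps28 (1.001 ± 0.13) and Mrpl35 (0.999 ± 0.10). For Mrpl35, whose protein has a bacterial counterpart, the level was 75.6 ± 4.19 CPM in allogeneic, 72.1 ± 6.87 CPM in syngeneic and 36.1 ± 1.84 CPM in control libraries. Allogeneic and syngeneic values overlapped, and both groups stood apart from control.

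Of the genes that fell, Mrps27, a mitochondrion-specific small subunit protein, had 13.6, 9.57, 17.6 and 18.5 CPM in syngeneic libraries, against 23.9, 33.4, 26.2 and 23.6 CPM in control libraries. The groups were apart (edgeR log2 fold change -0.85 ± 0.23 SE, adjusted p = 0.00442). Mrps5 (-0.68 ± 0.20), Mrpl38 (-0.66 ± 0.16), Mrps2 (-0.60 ± 0.19), Mrps25 (-0.41 ± 0.16), Mrpl32 (-0.36 ± 0.15) and Mrpl4 (-0.25 ± 0.098) fell as well. The fall of Mrpl4 had the opposite sign with the GC offset (0.35, edgeR adjusted p = 0.00799) and with the offset for GC and length (0.027, adjusted p = 0.8455). Mrpl32, whose maturation by a mitochondrial protease is a known step of mitoribosome assembly, had 53.2, 43.8, 53.7 and 45.1 CPM in allogeneic, 36.1, 47.9, 31.1 and 31.3 CPM in syngeneic and 44.3, 50.5, 41.9 and 51.4 CPM in control libraries. Syngeneic 1, 3 and 4 were the lowest of all 12 libraries. Calls were lost for Mrps2 (edgeR adjusted p 0.05515 without control 1), Mrps25 (0.057 to 0.13 without control 1, 2, 3 or syngeneic 1, 2, 3), Mrpl32 (0.0535 to 0.138 without control 1, 2, 4 or syngeneic 1, 3, 4) and Mrpl4 (0.05085 to 0.1335 without control 1, 2, 3 or syngeneic 2, 3, 4). The count that fell was 3 without control 1, 4 without control 2 and 4 without syngeneic 3. It was 13 with library totals, where the median of the 77 genes was 0.25, and 4 with RLE factors or with no filter on low counts. Of all tested genes, 31.3% were called lower with library totals, 24.9% with RLE factors and 18% with no filter. That share was 23.2% without control 1, 23.1% without control 2 and 23.6% without syngeneic 3, against 25.6% with all libraries.

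**Figure D4:**
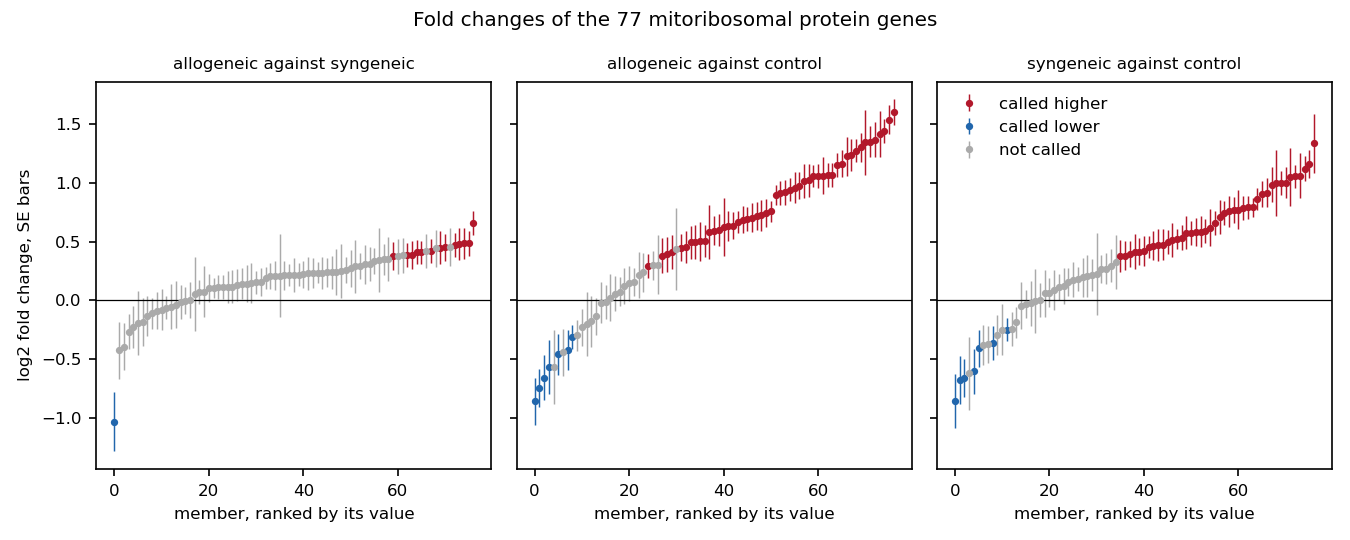
Log2 fold change of each of the 77 genes in the 3 comparisons, ranked within each panel from lowest to highest; bars are SE, red and blue mark genes called higher and lower by edgeR at an adjusted p under 0.05, and grey marks genes not called. In allogeneic against syngeneic 13 genes are called higher and 1 lower, in allogeneic against control 50 and 7, and in syngeneic against control 42 and 7.

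The 3 Mrps18 genes are paralogs of 1 bacterial small subunit protein, and they behaved differently from one another. Mrps18c, which takes the place of the bacterial protein in the small subunit, had 78.4, 78.3, 86.7 and 78.9 CPM in allogeneic, 65.2, 60.9, 60.4 and 60.3 CPM in syngeneic and 45.4, 36.4, 40.6 and 48 CPM in control libraries. It rose in all 3 comparisons, with log2 fold changes of 0.39 ± 0.10 SE in allogeneic against syngeneic, 0.92 ± 0.11 in allogeneic against control and 0.53 ± 0.10 in syngeneic against control. Mrps18a, whose protein sits in the large subunit, had 69.5 ± 3.78 CPM in allogeneic, 64.3 ± 7.84 CPM in syngeneic and 56.8 ± 1.64 CPM in control libraries. Its one call, in allogeneic against control (edgeR log2 fold change 0.29 ± 0.10 SE, adjusted p = 0.0218), was lost at 0.05065 to 0.0629 without allogeneic 3 or control 2, 4, and had the opposite sign under library totals (-0.080). Mrps18b had 12.2, 13.7, 18 and 17.6 CPM in allogeneic and 19.8, 29.2, 16.4 and 18.1 CPM in control libraries, and was not called (edgeR log2 fold change -0.44 ± 0.20 SE, adjusted p = 0.0695). Without control 3 it was, at an edgeR adjusted p of 0.0381. Mrps30, the lowest member per kilobase, had 4.2 ± 0.489 CPM in allogeneic, 4.04 ± 0.947 CPM in syngeneic and 6.21 ± 0.902 CPM in control libraries. Neither comparison with control was called (edgeR adjusted p = 0.131 for allogeneic and 0.106 for syngeneic). Mrps36, outside the mitoribosome, had 25, 25.6, 25.9 and 21.8 CPM in allogeneic, 17.1, 18.7, 20.5 and 15.6 CPM in syngeneic and 10.9, 9.66, 10.1 and 11.4 CPM in control libraries. It rose in both comparisons with control (1.22 ± 0.16 SE in allogeneic and 0.77 ± 0.16 SE in syngeneic).

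Members are short genes, with a median transcript length of 1047 nucleotides against 2072 over all tested genes. Shorter members tended to have higher fold changes in these libraries. Across the 77 members, Spearman's rho of log2 fold change with length was -0.32 in allogeneic against syngeneic, -0.41 in allogeneic against control and -0.37 in syngeneic against control. These describe genes that share libraries. Over all tested genes these values were -0.16, -0.11 and -0.068. With GC content, rho over all tested genes was -0.055, -0.28 and -0.29 in the same comparisons, larger in size than with length against control, while over the 77 members it was 0.015, -0.032 and -0.029. The 36 members under 1000 nucleotides had a median log2 fold change of 0.75 in allogeneic against control, and 29 of them rose. All 2495 tested genes of that length had a median of 0.23, and 39.5% were called higher. In allogeneic against syngeneic, 10 of these 36 short members rose, beside 18.5% of all tested genes of that length, with medians of 0.24 and 0.11. For syngeneic against control the short members held 26 that rose, beside 36.6%, with medians of 0.55 and 0.18. With the length correction the median of the 77 members was 0.13 in allogeneic against syngeneic, 0.41 in allogeneic against control and 0.33 in syngeneic against control. In the comparisons with control, 47 and 41 genes were then called higher. That is 61% and 53.2%, beside 30.6% and 28.4% of all tested genes. Such a correction removes whatever goes with length, technical or not, and which of these it removed was not tested.

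**Figure D5:**
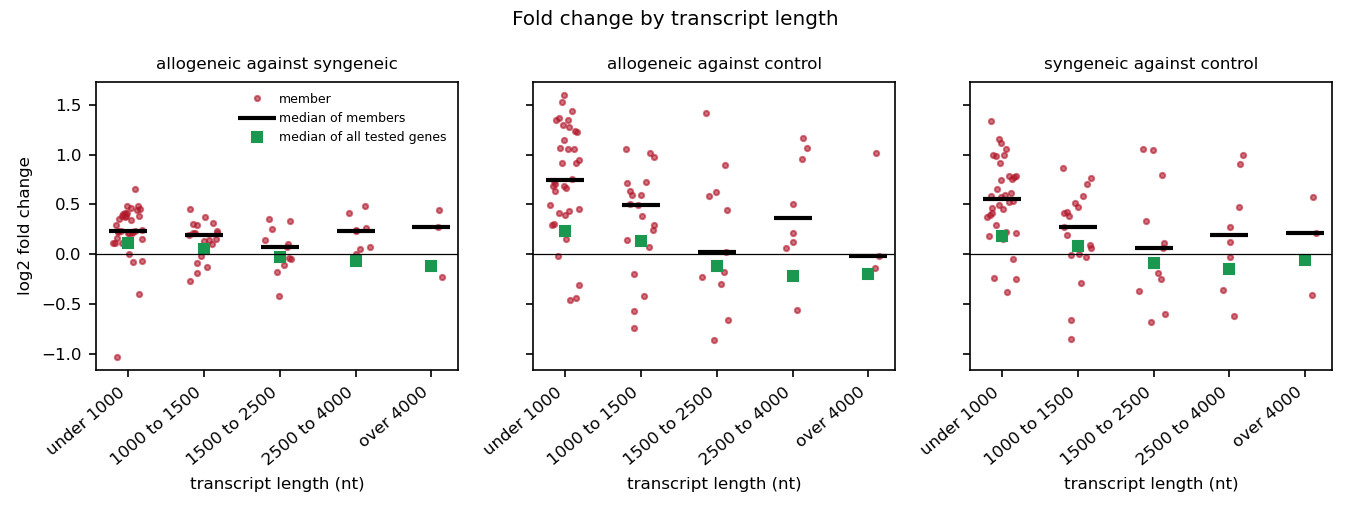
Log2 fold change of each member (red points) by class of transcript length, in the 3 comparisons, with black marks for the median of members and green squares for the median of all tested genes in the same class. Members under 1000 nucleotides have the highest median in both comparisons with control, and the medians of all tested genes are also highest in that class.

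Mitoribosomal proteins whose gene names do not follow the rule gave 3 of 6 that rose in allogeneic against syngeneic and 3 that rose in allogeneic against control. In syngeneic against control 2 rose and 1 fell. For this list and those below, the shares of all tested genes called higher and lower are again 10.1% and 6.38% in allogeneic against syngeneic, 28.2% and 29.1% in allogeneic against control, and 26.4% and 25.6% in syngeneic against control. Dap3, a small subunit GTP-binding protein also known from cell death, had 23.7 ± 5.33 CPM in allogeneic, 13.9 ± 1.25 in syngeneic and 26.2 ± 1.83 in control libraries. It rose in allogeneic against syngeneic (edgeR log2 fold change 0.77 ± 0.17 SE, adjusted p = 0.00319) and fell in syngeneic against control (edgeR log2 fold change -0.92 ± 0.17 SE, adjusted p = 0.000179). Chchd1, a small subunit protein, had 54.2 ± 5.75 CPM in allogeneic, 39.1 ± 2.22 in syngeneic and 31.5 ± 2.82 in control libraries. It rose in allogeneic against syngeneic (0.47 ± 0.12 SE), in allogeneic against control (0.78 ± 0.12 SE) and in syngeneic against control (0.31 ± 0.12 SE). The last call was lost at edgeR adjusted p 0.0511 to 0.0987 without syngeneic 1, 2, 3 or control 2, 3, and its value had the opposite sign with an offset for GC and length (-0.059, adjusted p = 0.705). Aurkaip1, another small subunit protein, rose to 52.1 ± 4.27 CPM in allogeneic libraries, against 39 ± 2.6 in syngeneic ones (edgeR log2 fold change 0.42 ± 0.13 SE, adjusted p = 0.036), a call lost at 0.0501 to 0.108 whichever of the 8 libraries was left out. It also rose against the 39.2 ± 6.85 CPM of control libraries (0.41 ± 0.13 SE), a call lost at 0.0553 without control 3. Ict1, a release factor that became a large subunit protein, rose in both comparisons with control (0.60 ± 0.14 SE in allogeneic and 0.46 ± 0.14 SE in syngeneic). The PPR protein gene Ptcd3 and the large subunit gene Gadd45gip1 were not called in any comparison.

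Genes whose products build the mitoribosome were called lower more often than higher in both comparisons with control. Of 27 genes for assembly and for modification of ribosomal RNA, 4 rose and 14 fell in allogeneic against control (median log2 fold change -0.60). In syngeneic against control 4 rose and 10 fell (-0.62), and in allogeneic against syngeneic 1 rose and 1 fell (-0.054). The share that fell was 51.9%, beside 29.1% of all tested genes, in allogeneic against control, and 37%, beside 25.6%, in syngeneic against control. Eral1, a chaperone of the small subunit RNA, had 19.2 ± 1.72 CPM in allogeneic, 28.7 ± 4.93 in syngeneic and 59.6 ± 3.46 in control libraries. It fell in allogeneic against syngeneic (-0.58 ± 0.14 SE), in allogeneic against control (-1.63 ± 0.14 SE) and in syngeneic against control (-1.05 ± 0.14 SE). Dhx30, an RNA helicase, fell to 26.2 ± 5.55 CPM in allogeneic and 36.5 ± 5.08 in syngeneic libraries, against 104 ± 22.6 in control libraries. Mettl17, an assembly factor of the small subunit, fell likewise to 13.2 ± 0.595 CPM in allogeneic and 9.7 ± 1.62 CPM in syngeneic libraries, against 46.5 ± 8.67 CPM in control libraries. The pseudouridine synthase gene Rpusd4 fell in both transplanted groups against control (-0.64 ± 0.16 in allogeneic and -1.35 ± 0.16 SE in syngeneic) and rose in allogeneic against syngeneic (0.71 ± 0.16 SE). No test was made of the difference between these genes and the mitoribosomal protein genes.

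Among 14 mitochondrial translation factor genes, 0 rose and 0 fell by edgeR in allogeneic against syngeneic, and 2 had an unadjusted p under 0.05. DESeq2 called 0 and 0 of them higher and lower, and limma-voom 0 and 0. By edgeR 1 rose and 2 fell in allogeneic against control, and 1 rose and 5 fell in syngeneic against control. That is 7.14% and 14.3% higher and lower in allogeneic against control, beside 28.2% and 29.1% of all tested genes. In syngeneic against control it is 7.14% and 35.7%, beside 26.4% and 25.6%. The elongation factor gene Gfm1 rose to 61.1 ± 11 CPM in allogeneic and 46 ± 10.3 in syngeneic libraries, against 17 ± 4.14 in control libraries (log2 fold change 1.84 ± 0.19 SE in allogeneic and 1.43 ± 0.19 SE in syngeneic). Gfm2, a related factor that recycles ribosomes, fell to 19.5 ± 4.1 CPM in allogeneic and 21.7 ± 4.41 CPM in syngeneic libraries, against 127 ± 13.9 CPM in control libraries (-2.71 ± 0.17 SE in allogeneic and -2.55 ± 0.17 SE in syngeneic). Mtif2, the initiation factor gene, fell in syngeneic against control (-0.70 ± 0.17 SE). Oxa1l, which inserts new proteins into the inner membrane, fell in both transplanted groups against control (-0.36 ± 0.12 SE in allogeneic, lost at edgeR adjusted p 0.0593 without control 1 and 0.0568 without allogeneic 3, and -0.50 ± 0.12 SE in syngeneic).

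Of 20 genes for mitochondrial transcription and RNA upkeep, 3 rose in allogeneic against syngeneic. In allogeneic against control 8 rose and 4 fell, and 4 rose and 7 fell in syngeneic against control. The shares called higher and lower were 40% and 20% in allogeneic against control, beside 28.2% and 29.1% of all tested genes, and 20% and 35% in syngeneic against control, beside 26.4% and 25.6%, not far from that background. The RNA-degrading enzyme gene Pnpt1 had 36.9 ± 1.1 CPM in allogeneic and 17.4 ± 4.09 in syngeneic libraries (edgeR log2 fold change 1.08 ± 0.18 SE, adjusted p = 0.000306). Slirp, which stabilises mitochondrial messages, had 31.3 ± 1.84 CPM in allogeneic and 16.5 ± 0.945 CPM in syngeneic libraries (edgeR log2 fold change 0.92 ± 0.14 SE, adjusted p = 0.000111). Rexo2, an oligoribonuclease gene, rose in the same comparison (0.45 ± 0.14 SE), a call lost at edgeR adjusted p 0.0752 to 0.152 without syngeneic 1, 3, 4 or allogeneic 1, 3. Polrmt, the mitochondrial RNA polymerase, fell to 8.85 ± 1.45 CPM in allogeneic and 10.2 ± 3.04 in syngeneic libraries, against 36.8 ± 1.69 in control libraries. Fastk (-1.08 ± 0.14 SE in allogeneic and -0.82 ± 0.14 SE in syngeneic) and, in syngeneic against control, Tbrg4 (-1.28 ± 0.21 SE), both RNA-binding proteins of mitochondria, fell too. Rexo2 was also called in allogeneic against control, where log2 fold changes of the 20 genes ran from -2.05 to 1.10.

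Most genes of mitochondrial protein import rose against control. Of 26 genes of the import channels and their chaperones, 8 rose in allogeneic against syngeneic and 22 in allogeneic against control. In syngeneic against control 22 rose and 1 fell. The shares that rose were 30.8%, 84.6% and 84.6% in these comparisons, beside 10.1%, 28.2% and 26.4% of all tested genes. The chaperonin genes were among them, with Hspe1 at 160.4 ± 10.2 CPM in allogeneic, 83.4 ± 5.72 in syngeneic and 49 ± 3.45 in control libraries. Hspd1 had 299.85 ± 29.8 CPM in allogeneic, 226 ± 8.83 in syngeneic and 105 ± 11.2 in control libraries. The outer membrane receptor gene Tomm22 had 118 ± 9.57 CPM in allogeneic, 91.8 ± 6.18 in syngeneic and 44 ± 3.62 in control libraries. The channel gene Tomm7 had 99.4 ± 3.61 CPM in allogeneic, 62.4 ± 8.66 in syngeneic and 35 ± 3.04 in control libraries. The import motor gene Dnajc19 had 92.3 ± 1.56 CPM in allogeneic, 76.7 ± 5.72 in syngeneic and 39.7 ± 2.8 in control libraries.

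Among 15 regulators of mitochondrial biogenesis, 1 rose and 1 fell in allogeneic against syngeneic, 2 and 6 in allogeneic against control, and 4 and 5 in syngeneic against control. The shares called higher and lower were 6.67% and 6.67% in the first, beside 10.1% and 6.38% of all tested genes, 13.3% and 40% in the second, beside 28.2% and 29.1%, and 26.7% and 33.3% in the last, beside 26.4% and 25.6%. The first and last are close to the background. Nrf1, a transcription factor of nuclear genes for mitochondria, had 20.5 ± 5.05 CPM in allogeneic, 27 ± 5.61 in syngeneic and 48 ± 10.2 in control libraries. It fell in both transplanted groups against control (-1.23 ± 0.20 SE in allogeneic and -0.83 ± 0.20 SE in syngeneic). Pprc1, a coactivator of the same genes, fell in both as well (-1.08 ± 0.15 SE in allogeneic and -1.03 ± 0.15 SE in syngeneic). So did Tfeb (-1.44 ± 0.18 SE in allogeneic and -0.96 ± 0.18 SE in syngeneic), a regulator of lysosomal genes. Myc fell in syngeneic against control (-1.20 ± 0.21 SE). The genes named against control are the called ones with the smallest p, and all of these fell. Log2 fold changes of the 15 regulators ran from -1.20 to 3.41 in syngeneic against control. Gabpb1, a subunit of an ETS factor, fell in allogeneic against syngeneic (edgeR log2 fold change -0.68 ± 0.17 SE, adjusted p = 0.00894). The stress gene Ddit3 rose (edgeR log2 fold change 0.52 ± 0.17 SE, adjusted p = 0.049), a call lost at 0.0777 to 0.158 without syngeneic 2, 3, 4 or allogeneic 2, 3, 4. For scale, 73 of 78 tested cytosolic ribosomal protein genes rose in allogeneic against syngeneic, beside 10.1% of all tested genes (median log2 fold change 0.88, beside 0.21 for the mitoribosomal ones). Their medians were 1.88 and 0.99 in allogeneic and syngeneic against control. The difference between the families was not tested. The genes of these lists were grouped by known role.

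In the GENCODE annotation of GRCm38, 17 of the 77 members share exon bases with another gene of the table, 2 of them on the same strand. The strand setting of the count is unknown, so reads of such partners cannot be told apart. Among the genes named above these are Mrpl13 with Mtbp, Mrpl19 with Gcfc2, Mrpl27 with Eme1 and Mrpl36 with Ndufs6. So are Mrps25 with Nr2c2 and Mrps6 with Slc5a3. The shared part was 3533 of 6073 exon bases in Mrps25, 1962 of 5000 in Mrpl19 and 75 of 756 in Mrpl27. Mrps26 and Mrps27 overlap antisense RIKEN genes.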

How the data were processed

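The submitters' processing notes name Trimmomatic 0.36, STAR 2.5.2b and the mm9 build. The authors deposited 1 table of raw counts per gene symbol. How reads were counted (tool, annotation, strand) is not given in the sources used here. Per the labels' protocols, RNA was isolated from sorted microglia with the Picopure kit. From these counts, genes were filtered with filterByExpr (minimum count 10), which kept 12695 of 18018 genes with a count, scaled with TMM factors and fitted with edgeR 4.0.16 (R 4.3.3) by group means over all 12 libraries (quasi-likelihood, robust), with Benjamini-Hochberg adjustment over all tested genes. SE was taken as the log2 fold change over the square root of its F value. Alternatives were RLE factors, library totals, other filters, DESeq2 1.42.0, limma 3.58.1 (voom), the compared groups only, the replicate number as a block, each library left out, and a loess offset (span 0.3) per library over GC content and transcript length. Offsets for length or GC alone were added after seeing the data. Length and GC are medians over GENCODE M21 protein-coding transcripts; 23298 symbols matched directly, 677 by a synonym and 353 not. On simulated counts (12380 genes) the fit called 28% of genes changed by 0.5 and 66% of those changed by 1 log2 unit in allogeneic against syngeneic. Only 100 genes of each size were changed, drawn from genes of any level above 1 CPM. In the data 1288 genes were called higher and 810 lower in that comparison, and members had a median of 38.2 CPM. The simulated shares therefore do not give the sensitivity for the members. Libraries of a group correlated at Spearman's rho 0.975 to 0.984 and none were duplicates. Nothing in the labels says beyond 4 mice a group how replicates were raised or sequenced. The named genes follow a rule on rank of fold change, level per kilobase and likeness to the sum, and for other lists the 3 called genes with the smallest p per comparison. The members, the lists and the rule were chosen with earlier results of these data known, and no set test was run.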

Additional observations from a re-analysis of the deposited data

Results flagged for a closer look

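In each group of 4 libraries, the gap between the highest or lowest library and its nearest neighbour was set against the whole range of the group, for the 77 genes and their sum. It passed Dixon's 95% critical value for 4 samples in 15 of 234 groups (6.41%), where chance alone flags about 5%. Mrpl15 was lowest in allogeneic 4 at 59.4 CPM, where the other 3 allogeneic libraries had 74.3 to 77.3 CPM. Mrpl42 was lowest in syngeneic 4 at 101 CPM, where the other 3 syngeneic libraries had 109 to 110.2 CPM. Mrpl42 was lowest in control 2 at 42.6 CPM, where the other 3 control libraries had 54.2 to 55.1 CPM. Mrpl22 was highest in control 4 at 27 CPM, where the other 3 control libraries had 22.3 to 23 CPM. Mrpl36 was highest in allogeneic 4 at 123 CPM, where the other 3 allogeneic libraries had 117 to 118 CPM. Mrps30 was highest in syngeneic 1 at 5.46 CPM, where the other 3 syngeneic libraries had 3.51 to 3.64 CPM. Mrpl52 was lowest in control 4 at 45 CPM, where the other 3 control libraries had 48.8 to 49.4 CPM. Mrpl21 was highest in syngeneic 1 at 33.5 CPM, where the other 3 syngeneic libraries had 25.6 to 26.6 CPM. Mrpl41 was highest in syngeneic 2 at 58 CPM, where the other 3 syngeneic libraries had 51.8 to 52.2 CPM. Mrpl47 was highest in syngeneic 2 at 19.1 CPM, where the other 3 syngeneic libraries had 13 to 14 CPM. Mrps21 was highest in control 1 at 46.8 CPM, where the other 3 control libraries had 40.3 to 41.3 CPM. Mrpl20 was lowest in allogeneic 1 at 87.6 CPM, where the other 3 allogeneic libraries had 97 to 98.3 CPM. Mrps18c was highest in allogeneic 3 at 86.7 CPM, where the other 3 allogeneic libraries had 78.3 to 78.9 CPM. Mrps18c was highest in syngeneic 1 at 65.2 CPM, where the other 3 syngeneic libraries had 60.3 to 60.9 CPM. Mrps12 was lowest in allogeneic 2 at 13.9 CPM, where the other 3 allogeneic libraries had 16.7 to 17.2 CPM.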

How the results depend on the processing

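Counts and medians below are for allogeneic against syngeneic, allogeneic against control and syngeneic against control, in that order. With library totals only, 1 member was called higher in the first (13 with TMM), 3, 15 and 13 were called lower, the medians were 0.013, 0.22 and 0.25, and the ratios of summed levels were 1.01, 1.2 and 1.19, against 1.16, 1.55 and 1.33 with TMM. This scaling moved the median of all tested genes to -0.22, -0.44 and -0.20. Relative to it the members' medians were 0.23, 0.66 and 0.44, close to the 0.23, 0.66 and 0.44 with TMM. Exchanging 1 factor per library shifts all genes nearly alike, so this closeness was fixed in advance and bears on neither scale. With library totals, 844, 2453 and 2723 of all tested genes were called higher and 2108, 5259 and 3968 lower. With the offset for GC content and length, 7 members (9.09%) were called higher in allogeneic against syngeneic, beside 9.85% of all tested genes. The medians were 0.11, 0.39 and 0.33. With the replicate block added, 5 members (6.49%) were called higher there, beside 9.31% of all tested genes. The medians were then 0.11, 0.39 and 0.33. The length offset alone gave 7 called higher (9.09%) in the first comparison, beside 9.92% of all tested genes. Its medians were 0.13, 0.41 and 0.33, and the GC offset alone gave medians of 0.73 and 0.52 against control. In syngeneic against control, 4 members were called lower with RLE factors and 4 with no filter, in place of 7. Signs turned for Mrpl4 and Mrps12 in allogeneic against control with the GC offset (0.39 and 0.22), for Mrps18a and Mrps34 there with library totals (-0.080 and -0.074), for Mrpl4 in syngeneic against control with the GC and length offset (0.027, and 0.025 with the replicate block) and the GC offset (0.35), and for Chchd1 there with the GC and length offset (-0.059 without and -0.060 with the block). On leaving out 1 library of the compared groups at a time, 9 to 12, 44 to 47 and 40 to 43 members were called higher, 4 to 8 and 3 to 6 were called lower against control, and the medians were 0.17 to 0.23, 0.54 to 0.62 and 0.38 to 0.45. Of all tested genes, 8.31% to 9.3%, 26% to 26.7% and 24.2% to 24.9% were then called higher. With all libraries these shares were 10.1%, 28.2% and 26.4%. Against control, 26.6% to 27.8% and 23.1% to 23.6% were called lower, in place of 29.1% and 25.6%. The cause of these shifts was not tested. By level, 2 of the 5 highest members per kilobase were among the 5 highest without division by length. The labels give the groups the same replicate numbers, but nothing says that a number marks a shared batch; same-numbered libraries deviated from their group means with correlations of -0.020 to 0.020 over genes. With the replicate number as a block, 13, 50 and 42 members were called higher and 1, 6 and 5 lower, with medians of 0.22, 0.59 and 0.42. Of all tested genes, 9.57%, 27.7% and 26% were called higher with this block, and 6.2%, 29.1% and 25.3% lower. Precision is limited by 4 libraries a group, and p-values set a group difference against a spread between mice estimated over all 12 libraries.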
